A study of Mus musculus with 6 samples.

Results

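The B lineage precursor genes are a group of 9 genes used by cells on the way to becoming B cells. Their RNA was read here in cells sorted from mouse bone marrow and labelled as megakaryocytes (MKs). The members were chosen by symbol from 3 families: the surrogate light chain genes Igll1 and Vpreb1 with the related Vpreb3, the receptor signalling chains Cd79a and Cd79b, and the B lineage factors and markers Pax5, Ebf1, Ms4a1 and Rag1. All 9 were found among the 16579 genes of the deposited table, and all 9 were among the 12256 genes that passed the filter on low counts. Of 6 libraries, 3 came from Becn1f/f mice and 3 were labelled Becn1f/f;Pf4-iCre. Both genotypes carry the floxed allele of Becn1, an autophagy gene, and only the latter also carry a Cre recombinase driven by the regulatory sequence of platelet factor 4 (Pf4), whose purpose is to remove the gene from cells in which Pf4 is expressed, MKs and platelets. The study's methods give an age of 3 months for the mice, and the cells were obtained by fluorescence-activated cell sorting. The question asked of these libraries was whether loss of Becn1 alters the transcriptome of MKs.

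B cells arise in the bone marrow from progenitors that pass through pro-B and pre-B stages. In pre-B cells a newly rearranged immunoglobulin heavy chain is paired with the surrogate light chain, made of the products of Vpreb1 and Igll1, and this pre-B cell receptor signals through the CD79A and CD79B chains. Ebf1 and Pax5 encode transcription factors that specify the B lineage and commit cells to it. All are known as genes of the B lineage rather than of MKs.

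Each library held between 16467560 and 17156728 rounded counts. The targeted gene Becn1 had 118 ± 9.37 CPM (counts after TMM scaling of library size, mean ± SD, n = 3) in Becn1f/f libraries and 107 ± 2.74 (SD, n = 3) in the libraries labelled Becn1f/f;Pf4-iCre, with a log2 fold change of -0.15 (SE 0.12, Benjamini-Hochberg adjusted p = 0.94, quasi-likelihood test of edgeR). Values are per gene and give no view of the floxed exons alone, so the second group is named by its label throughout, in short as Pf4-iCre-labelled libraries. By other assays, the study reported less Becn1 mRNA in sorted CD41-positive marrow cells of Becn1f/f;Pf4-iCre mice. It also reported no detectable Becn1 protein in their platelets. Of the defining MK markers, Itga2b (CD41) averaged 52.6 FPKM (a level per transcript length and sequencing depth) over the 6 libraries, while Pf4 averaged 13.3 FPKM and Mpig6b 0.19 FPKM. The 16 MK and platelet markers summed to at most 395.5 CPM in any library, and 13 neutrophil markers to at least 9328 CPM. The libraries are therefore called MKs by their label, and the share of their RNA that came from MKs was not tested. In these bulk samples, fewer cells of a type and less RNA per cell cannot be told apart. The labels number the libraries without saying whether each is 1 mouse, so p-values measure only the spread between these libraries.

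Of the 9 genes, Igll1 and Vpreb1 lie next to each other on the minus strand of chromosome 16 (GENCODE M21, GRCm38). Igll1 spans 16860671 to 16863985 with 3 exons, Vpreb1 spans 16868403 to 16870843, and 4417 bases lie between them. Vpreb1 overlaps Top3b, a gene on the opposite strand. Because strand was not stated for the counting, reads of the pair could not be told apart there. The spans of Vpreb3, Pax5, Ebf1 and Ms4a1 also overlap genes annotated on the opposite strand, so the same limit applies to them. The related gene Vpreb3 lies elsewhere, on chromosome 10 from 75943057 to 75949657 on the plus strand. The stretch of 250 bases before the RefSeq start site is shown for these 3 genes, because they include the 1 member that passed the test and its neighbor. For Vpreb1 and Vpreb3 the RefSeq start site differs from the GENCODE gene start given above, so their windows lie inside the GENCODE spans. The sequences are from RefSeq (GRCm38.p6), written 5′ to 3′ on the strand of the gene, at chr16:16863986-16864235 (minus) for Igll1, chr16:16869256-16869505 (minus) for Vpreb1 and chr10:75948050-75948299 (plus) for Vpreb3. Capitals mark matches on either strand to CCCNNGGG, the paired half-sites of EBF factors, and to CAGNTG, a form of the E-box read by E2A factors.
Igll1: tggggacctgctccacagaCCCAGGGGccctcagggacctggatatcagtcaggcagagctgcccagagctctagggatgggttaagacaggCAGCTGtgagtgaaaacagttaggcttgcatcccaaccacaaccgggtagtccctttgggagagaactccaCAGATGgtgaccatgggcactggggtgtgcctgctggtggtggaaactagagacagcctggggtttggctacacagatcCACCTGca
Vpreb1: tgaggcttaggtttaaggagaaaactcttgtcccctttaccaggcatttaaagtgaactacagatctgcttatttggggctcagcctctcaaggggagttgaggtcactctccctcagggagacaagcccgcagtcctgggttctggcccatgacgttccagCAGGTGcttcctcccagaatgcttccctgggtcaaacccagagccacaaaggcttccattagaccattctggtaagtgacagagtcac
Vpreb3: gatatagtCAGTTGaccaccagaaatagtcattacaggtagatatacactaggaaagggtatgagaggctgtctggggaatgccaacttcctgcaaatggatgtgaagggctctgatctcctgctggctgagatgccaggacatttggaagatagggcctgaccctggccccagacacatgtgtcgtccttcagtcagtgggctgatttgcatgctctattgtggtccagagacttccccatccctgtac

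Igll1 held 1 match to the EBF letters, CCCAGGGG at -231 to -224 from its start site, and 3 matches to the E-box letters, the nearest at -8 to -3. Vpreb1 held 1 E-box match at -88 to -83 and Vpreb3 1 at -242 to -237. The 8 promoter windows listed for 7 members included 1 with CCCNNGGG and 5 with CAGNTG, against 11.8% and 44.8% of all 32851 windows of this length. Over the 12442 windows of tested genes the shares were 15.4% and 38.2%. The core read by Ikaros, TGGGAA, was in windows of Ebf1 and Rag1 (21.6% of all windows, 20.5% of those of tested genes). TATAAA was in none of the 8 (12.4% of all windows, 6.53% of those of tested genes). The motifs were searched on both strands, do not overlap each other in the windows shown, and describe letters only. Cd79b and Ms4a1 have no entry in the table of promoters.

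Per transcript length, the receptor signalling chains were the most abundant members. Cd79a averaged 46.5 FPKM over the 6 libraries and Cd79b 35.5 FPKM, and Cd79a was above Cd79b in 6 of 6 libraries, although their ranges overlapped. Vpreb3 followed at 16.1 FPKM, below every value of Cd79b and above every value of Igll1. The next 6 genes were Igll1 at 6.88 FPKM, Pax5 at 5.84, Vpreb1 at 5.10, Ms4a1 at 4.76, Ebf1 at 4.2 and Rag1 at 3.13, and in this stretch each gene overlapped the next over the libraries. No member was listed at 0 in any library.

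**Figure D1:**
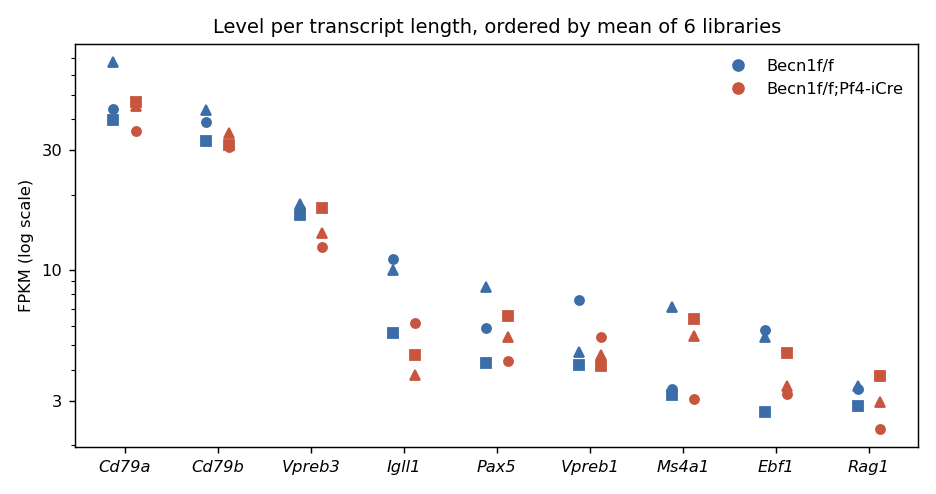
FPKM of each gene in each library (vertical log axis), with genes ordered from left to right by their mean over 6 libraries. Circles, squares and triangles are libraries 1, 2 and 3 of Becn1f/f (blue) and Becn1f/f;Pf4-iCre (red), and the points of Cd79a and Cd79b lie above all others, between 31.1 and 67.4 FPKM.

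Igll1 fell in the Pf4-iCre-labelled libraries, and was the only one of the 9 genes that passed the thresholds for differentially expressed genes (DEGs), a fold change of at least 1.5 and an unadjusted P under 0.05. The gene encodes the lambda5 chain, the part of the surrogate light chain that binds the heavy chain. It had 6.21, 3.11 and 5.36 CPM in Becn1f/f libraries 1, 2 and 3 and 3.60, 2.47 and 2.08 CPM in Pf4-iCre-labelled libraries 1, 2 and 3, from 99, 54 and 95 against 60, 41 and 35 rounded counts. The groups overlapped through Becn1f/f library 2, which was lower than Pf4-iCre-labelled library 1, whereas all 3 Pf4-iCre-labelled libraries were below the Becn1f/f mean. The group means were 4.89 ± 1.6 and 2.72 ± 0.787 CPM (SD, n = 3 each), so the second was 55.5% of the first. This was a log2 fold change of -0.85 (SE 0.30, 95% interval -1.51 to -0.18, unadjusted P = 0.0171 from the quasi-likelihood test of edgeR). After Benjamini-Hochberg adjustment over all 12256 genes, the same edgeR test gave an adjusted p of 0.60. An exact two-sided permutation test on the difference of mean log2(CPM + 1) gave p = 0.2, where 3 libraries against 3 cannot go below 0.1. In FPKM, Igll1 averaged 8.89 in Becn1f/f and 4.86 in Pf4-iCre-labelled libraries.

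The call of Igll1 rested on single libraries of either genotype. Without Becn1f/f library 1, the highest, the log2 fold change was -0.63 (unadjusted P = 0.0659), and without Pf4-iCre-labelled library 2 or 3 it was -0.78 (unadjusted P = 0.0507) or -0.68 (unadjusted P = 0.0706). Without Becn1f/f library 2, the lowest of its group, it was -1.09 (unadjusted P = 0.00256). Its sign was negative in all 15 alternative fits.

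Vpreb1, whose product forms the other part of the surrogate light chain, did not pass the thresholds. It had 3.45, 1.90 and 2.09 CPM in Becn1f/f libraries 1, 2 and 3 and 2.58, 1.81 and 2.02 CPM in the corresponding Pf4-iCre-labelled libraries, with means of 2.48 ± 0.846 and 2.14 ± 0.397 CPM (SD, n = 3 each). Library 1 was the highest of its group in both genotypes, and the groups overlapped. The log2 fold change was -0.21 (SE 0.30, 95% interval -0.87 to 0.45, Benjamini-Hochberg adjusted p = 0.97, edgeR), an interval that includes the estimate of Igll1. Vpreb1 has a close paralog, Vpreb2, and 18.8% of the 1238 stretches of 50 bases in the Vpreb1 transcript also occur in Vpreb2, so the division of reads between them is uncertain. Vpreb2 itself was too low to be tested, at means of 0.30 and 0.20 CPM.

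Within each library, Igll1 was read against its chromosomal neighbor. The ratio of Igll1 to Vpreb1 in FPKM was 1.46, 1.34 and 2.11 in Becn1f/f libraries 1, 2 and 3 and 1.15, 1.11 and 0.836 in Pf4-iCre-labelled libraries 1, 2 and 3. All values of the second group were below all values of the first, which held for 1 of the 8 ratios between members that were computed. The ratio of Igll1 to Cd79b overlapped between groups, at 0.286, 0.171 and 0.229 in Becn1f/f and 0.199, 0.146 and 0.108 in Pf4-iCre-labelled libraries. That of Igll1 to Ms4a1 also overlapped, at 3.30, 1.76 and 1.40 against 2.01, 0.724 and 0.698. These pairs were picked with the values in view, and the ratios therefore have no test.

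Vpreb3, which encodes a chaperone-like protein of B cell precursors and is not a part of the surface receptor, had 5.27, 5.0 and 5.31 CPM in Becn1f/f libraries and 4.02, 4.95 and 4.04 CPM in Pf4-iCre-labelled libraries. It was the only one of the 9 genes whose groups did not overlap in CPM, with Becn1f/f library 2 and Pf4-iCre-labelled library 2 at 5.0 and 4.95 CPM. In FPKM the groups did overlap, since Pf4-iCre-labelled library 2 had 17.7 and Becn1f/f library 2 had 16.6. The log2 fold change was -0.26 (SE 0.20, 95% interval -0.70 to 0.18, unadjusted P = 0.223), and the exact permutation test gave its smallest possible p, 0.1. Among all tested genes, 5.18% had all 3 Pf4-iCre-labelled libraries below all 3 Becn1f/f libraries, against 1 of these 9.

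Cd79a and Cd79b encode the paired chains that carry the signal of both the pre-B cell receptor and the B cell receptor, and neither passed the thresholds. Cd79a had 30.6, 27.2 and 44.8 CPM in Becn1f/f libraries and 25.7, 31.3 and 30.5 CPM in Pf4-iCre-labelled libraries. Becn1f/f library 3 stood highest and the other 5 values lay within a narrow overlapping range. The log2 fold change of Cd79a was -0.23 (SE 0.19, 95% interval -0.64 to 0.18, unadjusted P = 0.243) and was 0.01 without Becn1f/f library 3.

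Cd79b had 36.2, 29.8 and 38.7 CPM in Becn1f/f libraries and 29.6, 28.2 and 31.9 CPM in Pf4-iCre-labelled libraries. Here Becn1f/f library 2 lay inside the range of the other genotype and the other two Becn1f/f libraries above it. The log2 fold change of -0.22 (SE 0.14, 95% interval -0.54 to 0.09, unadjusted P = 0.151) had the narrowest interval of the 9. The 2 chains kept similar proportions in both genotypes, with Cd79a to Cd79b ratios in FPKM of 1.30 ± 0.218 and 1.31 ± 0.170 (SD, n = 3 each).

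Pax5, the commitment factor of the B lineage, had 47.9, 33.2 and 65.6 CPM in Becn1f/f libraries and 35.2, 51.6 and 42.6 CPM in Pf4-iCre-labelled libraries. The highest and the lowest values both belonged to Becn1f/f. Between genotypes the log2 fold change was -0.18 (SE 0.22, 95% interval -0.67 to 0.31, unadjusted P = 0.432), and it was 0.09 without Becn1f/f library 3.

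Ebf1, which acts before Pax5 in B lineage specification, had 29.2, 13.1 and 25.6 CPM in Becn1f/f libraries and 16.1, 22.7 and 16.8 CPM in Pf4-iCre-labelled libraries. Again the highest and the lowest values were of the same genotype, Becn1f/f, and enclosed the other group. Ebf1 had a log2 fold change of -0.29 (SE 0.26, 95% interval -0.85 to 0.27, unadjusted P = 0.288). From the lowest to the highest library Ebf1 varied 2.23-fold, second to Igll1 at 2.99-fold.

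Ms4a1 encodes CD20, a surface protein that appears as cells mature beyond the pre-B stage, and was the only one of the 9 genes with a positive estimate. It had 9.22, 8.34 and 18.3 CPM in Becn1f/f libraries and 8.45, 16.7 and 14.5 CPM in Pf4-iCre-labelled libraries. The groups covered nearly the same range. Its estimate was a log2 fold change of 0.14 (SE 0.31, 95% interval -0.53 to 0.81, unadjusted P = 0.656). Without Becn1f/f library 3 it was 0.59 (unadjusted P = 0.0463) and passed the thresholds, whereas without Becn1f/f library 1 or 2 or Pf4-iCre-labelled library 2 it was -0.0044, -0.064 or -0.062.

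Rag1, which encodes the catalytic subunit of the recombinase that joins immunoglobulin gene segments, had 22.0, 17.9 and 21.2 CPM in Becn1f/f libraries and 15.3, 23.9 and 18.8 CPM in Pf4-iCre-labelled libraries. The lowest and the highest values were both in the Pf4-iCre-labelled group. Rag1 had a log2 fold change of -0.08 (SE 0.18, 95% interval -0.47 to 0.32, unadjusted P = 0.682). Rag1 overlaps another gene on its own strand, B230118H07Rik, which leaves part of its count uncertain.

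**Figure D2:**
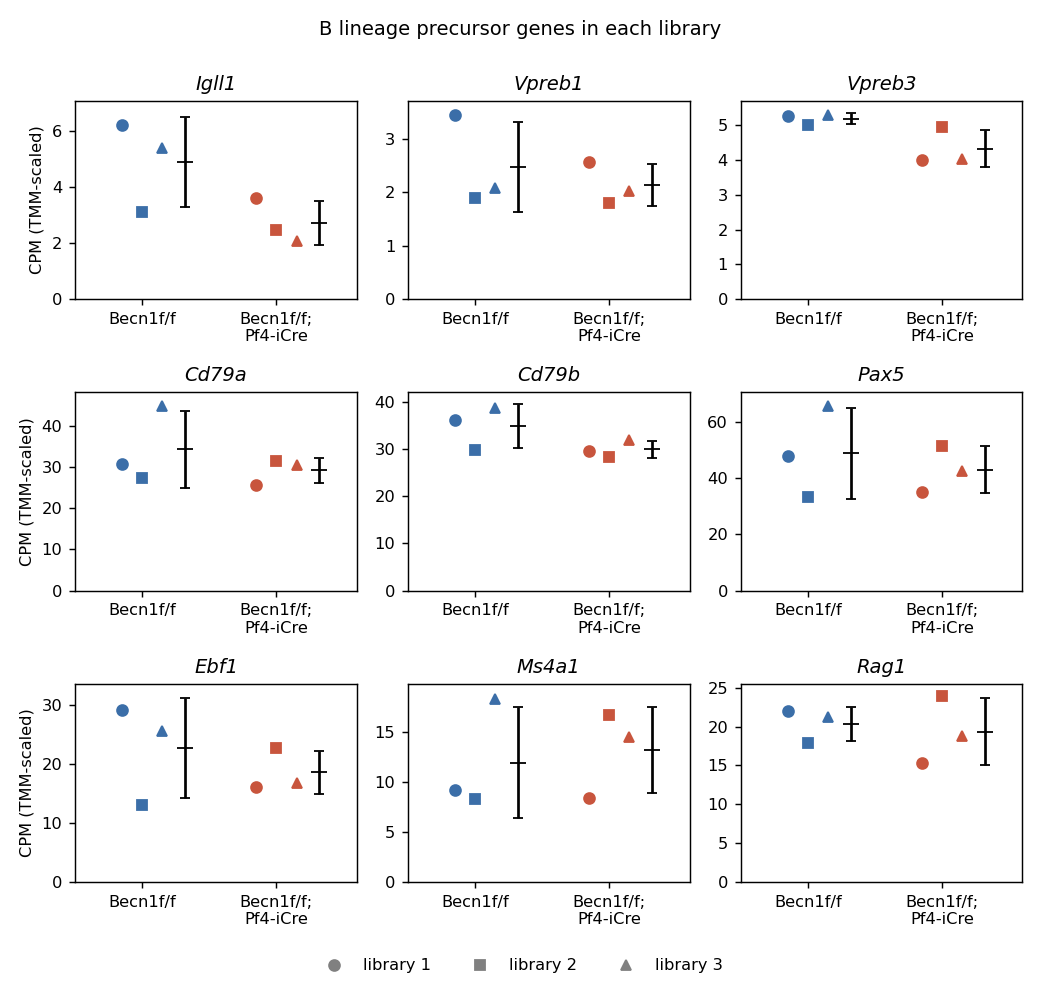
TMM-scaled CPM (vertical axes, from 0) of the 9 genes in each library, with circles, squares and triangles for libraries 1, 2 and 3, Becn1f/f in blue and Becn1f/f;Pf4-iCre in red. Black bars are the mean ± SD of 3 libraries, and the groups are apart for Vpreb3 alone.

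Counted together, 1 of the 9 genes passed the DEG thresholds as lower (Igll1) and 0 as higher, against 0.938% and 1.36% of all tested genes. No member reached an adjusted p below 0.05 in edgeR, in DESeq2 or in any of the other fits, and 1 had an unadjusted P under 0.05 in the edgeR test, where 6.31% of all tested genes did. The share of all tested genes with an adjusted p under 0.05 was 0.0408%. The estimates of 8 of 9 members were below 0, where 54.5% of all tested genes were, and the median log2 fold change of the members was -0.22 against -0.02 for all tested genes. Leaving out Igll1 gave 7 of 8 below 0. These genes were not independent of each other in the 6 libraries, so the count carries no test.

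**Figure D3:**
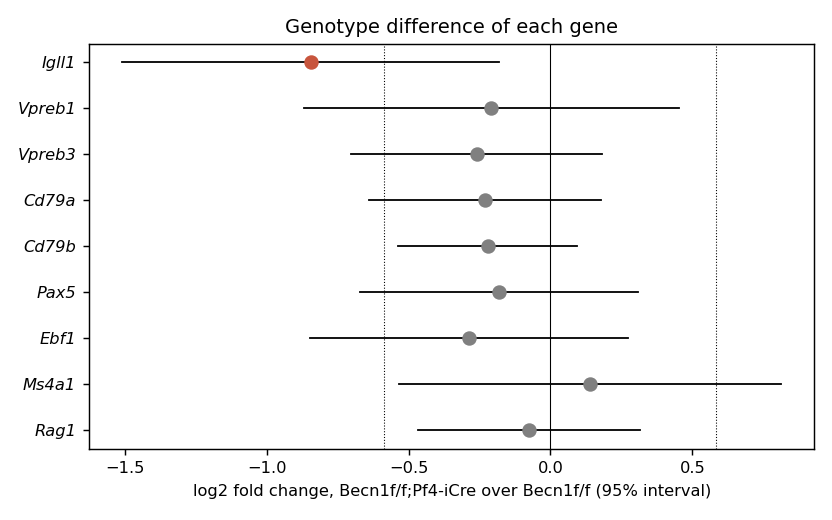
Log2 fold change of each gene, Becn1f/f;Pf4-iCre over Becn1f/f (horizontal axis), with points for the estimates and lines for the 95% intervals from the edgeR fit with 3 libraries per genotype. Dotted lines mark a fold change of 1.5, the red point is Igll1, the only DEG, and the intervals of the other 8 genes include 0.

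The members varied between libraries within genotypes as well as between them, and some of them did so in a similar way. Becn1f/f library 3 was the highest for 5 members (Vpreb3, Cd79a, Cd79b, Pax5 and Ms4a1) and Becn1f/f library 1 for 3 (Igll1, Vpreb1 and Ebf1). The lowest value was in Becn1f/f library 2 for 3 members (Pax5, Ebf1 and Ms4a1), in Pf4-iCre-labelled library 1 for 3 (Vpreb3, Cd79a and Rag1), in library 2 of that group for 2 and in its library 3 for 1. Summed over the 9 genes, the level was 190, 139.5 and 227 CPM in Becn1f/f libraries 1, 2 and 3 and 140.5, 184 and 163 CPM in Pf4-iCre-labelled libraries. The range of the Becn1f/f libraries enclosed the whole of the other group, with means of 185.5 ± 44.0 and 162.4 ± 21.6 CPM (SD, n = 3 each). Together the 9 genes took between 0.0137% and 0.0235% of all counts in a library.

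The correlation of each member with the mean z-score of all 9 described how far it followed their mean pattern over the 6 libraries. Each member contributes to that mean, which raises its correlation. Ebf1 (r = 0.92), Pax5 (0.91), Cd79a (0.84) and Cd79b (0.82) followed it most, and Vpreb1 (0.30) and Ms4a1 (0.53) least. Of the other tested genes, the 5 whose log2 CPM was most like the mean z-score were Cd177 (r = 0.98), Mrgpra2b, Arid3b, Rnf145 and LOC105244034 (r = 0.97 each). None of the 5 was a DEG. They were picked as the highest of all other tested genes over only 6 libraries, so their correlations carry no test and show no link. Cd177 encodes a surface protein of neutrophils.

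**Figure D4:**
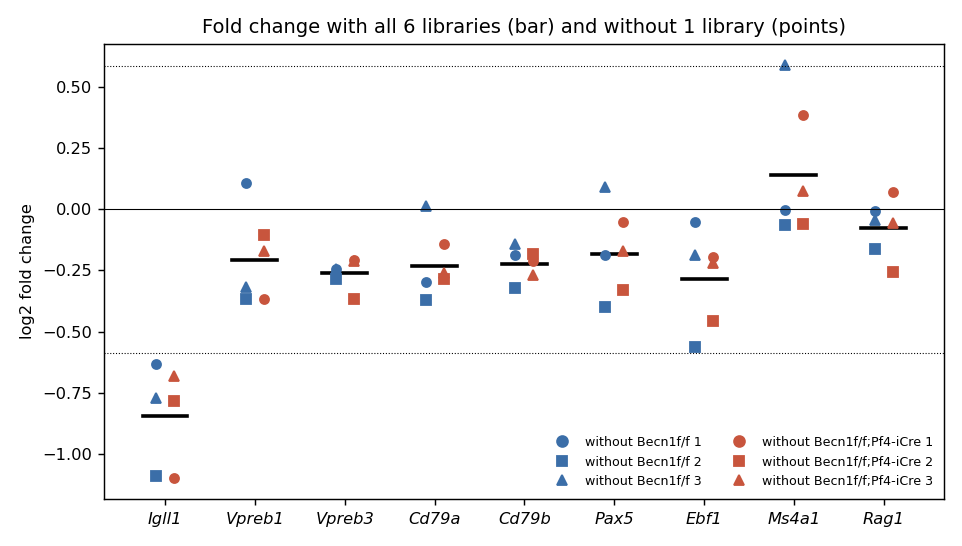
Log2 fold change of each gene with all 6 libraries (black bars) and with 1 library left out (points, colored by the genotype of the library left out and shaped by its number), with dotted lines at a fold change of 1.5. The estimates of Igll1 stay between -1.10 and -0.63, and those of Vpreb1, Cd79a, Pax5, Ms4a1 and Rag1 lie on both sides of 0.

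The wider B lineage program was read from lists of 95 other genes, of which 88 were in the table and 85 were tested. Of these, 41 had estimates above 0 and 44 below, with a median log2 fold change of -0.02, the same as for all tested genes. In all, 2 passed the DEG thresholds as higher and 1 as lower, against 1.36% and 0.938% of all tested genes. In edgeR none of the 85 had an adjusted p below 0.05, while 8 had an unadjusted P under 0.05, against 6.31% of all tested genes. All Pf4-iCre-labelled libraries lay above all Becn1f/f libraries in CPM for 4 of these 85 genes, and below them for 6. Among all 12256 tested genes the same held for 664 and 635.

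Flt3 and Bcl6 rose. Flt3, a cytokine receptor of early lymphoid and dendritic progenitors, had 71.1 ± 9.12 CPM in Becn1f/f and 119 ± 12 CPM in Pf4-iCre-labelled libraries (SD, n = 3 each), with no overlap and a log2 fold change of 0.74 (SE 0.14, Benjamini-Hochberg adjusted p = 0.11, edgeR). Bcl6, a transcriptional repressor used in pre-B and germinal center B cells, had 45.4 ± 1.02 and 68.2 ± 7.82 CPM (SD, n = 3 each), also with no overlap, and its log2 fold change was 0.59 (SE 0.13, Benjamini-Hochberg adjusted p = 0.21, edgeR). Derl3, a plasma cell gene of protein quality control in the endoplasmic reticulum, fell, with means of 1.27 ± 0.144 and 0.779 ± 0.109 CPM (SD, n = 3 each) and no overlap. Its log2 fold change was -0.70 (SE 0.32, unadjusted P = 0.0483 in edgeR). The number called among these genes was 5 without Becn1f/f library 2, 6 without Becn1f/f library 3 and 1 without Pf4-iCre-labelled library 1 or 2. Flt3 was called in all 6 fits that left out 1 library, Bcl6 in 3 and Derl3 in 0. Bcl6 was also not called in the 3 limma fits on FPKM. Derl3 was also not called in DESeq2, without the filter on low counts or with a correction for GC content and length. Nor was it called in either limma fit on log2(FPKM + 1). With the replicate number as a block, neither Bcl6 nor Derl3 was called.

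By role, the 11 tested early B lineage genes had 5 estimates above 0 and 6 below (median -0.10). The most abundant, Cd24a, a surface antigen of B cell precursors and other cells, had -0.40, and Cd93 0.35, neither a DEG. Dntt, the terminal transferase of immunoglobulin gene joining, had -0.28, the recombinase partner Rag2 -0.22 and the cytokine receptor Il7r 0.39, none a DEG. The 9 genes of end joining after V(D)J cleavage had 7 above 0 and 2 below (median 0.05), with -0.19 for Xrcc6, 0.05 for Dclre1c and 0.17 for Xrcc4. None of these 9 passed the thresholds.

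Of 21 transcription regulators, 10 were above 0 and 11 below (median -0.02). The most abundant were Spi1 at -0.13, Irf8 at 0.01 and Ikzf1 at 0.12, all also used in myeloid cells. The 21 genes of receptor signalling had 11 above 0 and 10 below (median 0.01) and no DEG. Among them the phosphatase Ptpn6 had -0.03, the kinase Syk 0.01 and the kinase Lyn 0.41, which was short of the fold threshold (unadjusted P = 0.00647).

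The 17 tested genes of the B cell surface had 6 above 0 and 11 below (median -0.05) and no DEG. The most abundant of this list were Cd37 at a log2 fold change of -0.23, Ly6d at -0.15 and Cd180 at 0.19. Of 6 tested plasma cell genes, 2 were above 0 and 4 below (median -0.35), with 0.07 for Xbp1, -0.42 for Jchain and -0.31 for Mzb1. Tnfrsf17, another plasma cell gene, was at 0 in at least 1 library and was not tested.

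**Figure D5:**
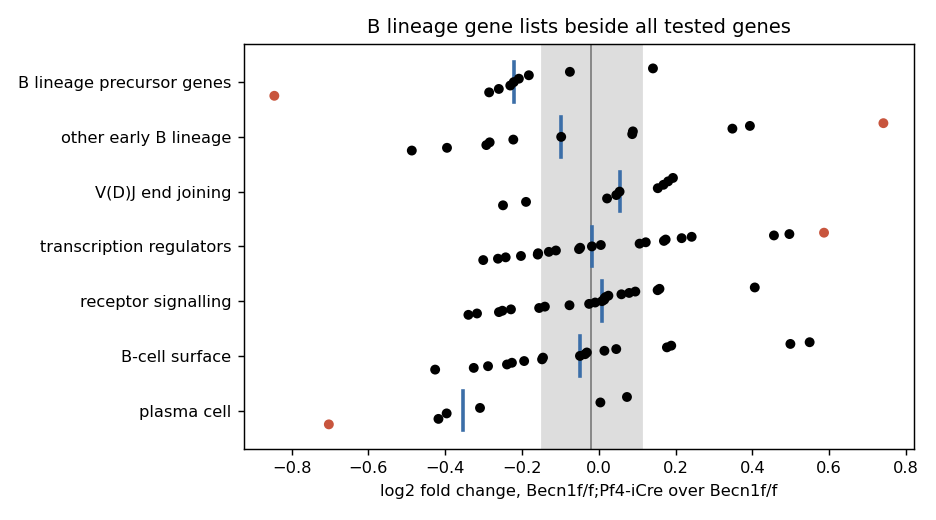
Log2 fold changes, Becn1f/f;Pf4-iCre over Becn1f/f (horizontal axis), of the 9 genes and of 6 lists of other B lineage genes, 1 point per tested gene, with DEGs in red and list medians as blue bars. The grey line and band are the median (-0.02) and the middle part (between the quartiles) of all tested genes, and the blue bar of the 9 genes lies at -0.22.

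Markers of other cells were counted in the same libraries, where 0.938% of all tested genes were DEGs as lower and 1.36% as higher. In edgeR, 0 genes of these marker lists had an adjusted p below 0.05. The summed level of 12 erythroid markers was 445 to 577 CPM in Becn1f/f and 318 to 396 CPM in Pf4-iCre-labelled libraries, with 12 of 12 estimates below 0 and 7 DEGs, all lower. The 12 macrophage markers summed to 782 to 831 and 841 to 1037 CPM, with 10 of 11 tested genes above 0 and 4 DEGs, all higher, and Timd4 at 0 in at least 1 library. The 13 neutrophil markers summed to 12000 to 17110 and 9328 to 12570 CPM, with 12 of 13 below 0 and 1 lower DEG, Mmp9.

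The 15 T and NK cell markers summed to 82.8 to 108.8 and 72.2 to 86.9 CPM, with 10 of 13 tested genes below 0 and no DEG. The 10 markers of plasmacytoid dendritic cells, which also express some B lineage genes, summed to 983 to 1281 and 1106 to 1268 CPM, with 5 above 0, 5 below and no DEG. That sum was mainly of Ly6c2, at a mean of 708 CPM over the 6 libraries. Runx2 was next at 166 CPM, while Siglech averaged 48.4 CPM and Ccr9 17.8 CPM. The 16 MK and platelet markers summed to 287 to 395 and 299 to 376 CPM, and 1 of 14 tested genes, Pf4, was a DEG, at 4.87 ± 1.62 and 2.42 ± 0.556 CPM (SD, n = 3 each). The part of these cells in the values of Igll1 and the other members was not tested.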

How the data were processed

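RNA of sorted bone marrow cells labelled as MKs was sequenced in 6 libraries, 3 per genotype, grouped by their labels. The authors filtered reads and mapped them with HISAT. The submitters' processing notes also name Bowtie2 and the builds GRCm39 and mm39, and the counting tool is not given in the sources used here. The authors deposited an estimated count and an FPKM value per gene and library. The deposited estimated counts were not whole for 10.3% to 11.3% of genes and were rounded. Another 16 per-sample columns, 4 of them of 1 library that matches no sample, and 8 columns of group means were not used.

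Genes passing edgeR's expression filter were scaled by TMM and fitted with edgeR 4.0.16 (R 4.3.3, quasi-likelihood test, genotype only). Fold and P thresholds followed the study's methods. DESeq2 1.42.0, limma 3.58.1 on log2(FPKM + 1) or log2(FPKM + 0.1), other filters and size factors, a replicate block and leaving out each library were alternatives. Taking out trends with GC content and length was an alternative chosen after seeing the data. The steps were tested on simulated data. The members and lists were chosen with earlier results of these data known. Genes named beside the members were the DEGs and the 3 of highest FPKM in each list, the 5 of nearest pattern and marker genes. Dntt, Rag2, Il7r, Vpreb2 and Mpig6b were named after their values were seen, and 1 gene of the lists is not reported here. The listed immunoglobulin constant region genes (Ighm, Ighd, Igkc, Iglc1, Iglc2, Iglc3 and Igha) were not found by symbol in the deposited table. They count among the 95 listed genes but could not be analysed. Positions (GENCODE M21, GRCm38) and promoters (RefSeq, GRCm38.p6) were matched by symbol, and none was taken from the deposited table. Counts carry sampling error beside the spread between libraries.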

Additional observations from a re-analysis of the deposited data

How the results depend on the processing

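Each genotype had 3 libraries. The number of members called was 1 with DESeq2, DESeq2's size factors, other count filters, limma on FPKM, the GC content and length correction, and 0 to 2 when 1 library was left out. It was 0 without Becn1f/f library 1, Pf4-iCre-labelled library 2 or Pf4-iCre-labelled library 3, and 2 without Becn1f/f library 3, when Ms4a1 was also called. Among the other B lineage genes, 3 calls became 1 with limma on log2(FPKM + 1), 1 when a mean FPKM of at least 1 was also required, and 1 to 6 when 1 library was left out. Of these, 5 were called without Becn1f/f library 2 and 6 without Becn1f/f library 3. The cause was not tested.

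Over 135 combinations of a member and an alternative, 124 kept their direction and side of the threshold. In 7 the direction reversed, each time by leaving out 1 library: Vpreb1 to 0.107 and Ms4a1 to -0.0044 without Becn1f/f library 1, Ms4a1 to -0.0635 without Becn1f/f library 2, Cd79a to 0.0125 and Pax5 to 0.0886 without Becn1f/f library 3, Rag1 to 0.0697 without Pf4-iCre-labelled library 1, and Ms4a1 to -0.0621 without Pf4-iCre-labelled library 2. Over all single libraries left out, the log2 fold change ranged from -0.368 to 0.107 for Vpreb1, -0.371 to 0.0125 for Cd79a, -0.397 to 0.0886 for Pax5, -0.0635 to 0.59 for Ms4a1 and -0.256 to 0.0697 for Rag1. The total of 282 DEGs was 121 with limma on log2(FPKM + 1), 137 when a mean FPKM of at least 1 was also required and 432 with a pseudocount of 0.1. Genes with an adjusted p under 0.05 numbered 5 in edgeR, 77 in DESeq2 and 19 with the replicate block.

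Same-numbered libraries had correlations of 0.0685, -0.279 and 0.201 in their deviations from the group means. The highest correlation of each Becn1f/f library with a Pf4-iCre-labelled library of another number was 0.0855, 0.241 and 0.16. With 3 libraries per genotype, these values cannot settle whether the replicate numbers pair the libraries. With the replicate number as a block, Igll1 had a log2 fold change of -0.83 (edgeR's quasi-likelihood test, adjusted p = 0.40) and was still the 1 member called, and 2 other B lineage genes were called, Flt3 and Cxcr5, while Bcl6 and Derl3 were not.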
